A study of Sus scrofa with 6 samples.

Results

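The transcripts described here are the 150 probe sets whose signal followed that of TYROBP most closely across the ovarian follicles of 6 sows. A probe set is a group of short oligonucleotides on the array that together read 1 transcript. Of the 23935 probe sets that were not controls, 10069 carried exactly 1 gene symbol. Of these, 3463 had a signal above 50 on at least 3 arrays and differed by at least 1 on the log2 scale between the lowest and the highest array. The 3463 were ranked by Pearson's correlation r of their log2 signal with the TYROBP probe set over the 6 arrays, and the top 150 were taken, which stand for 128 different gene symbols. TYROBP itself, FCER1G, CD14, CD68, CD163, CSF1R, AIF1, LYZ, CD74 and all symbols of the swine leukocyte antigens (SLA) were left out by name. The members were thus selected on the measured values, and their r to TYROBP, which ran from 0.885 to 0.997 with a median of 0.940, is a description with no test.

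TYROBP, also called DAP12, is a small membrane adaptor of myeloid and natural killer cells. It has almost no outer part of its own and pairs with receptors on the cell surface, and its inner tail carries an immunoreceptor tyrosine-based activation motif (ITAM) that recruits kinases when the receptor binds. FCER1G is a similar adaptor for Fc receptors, which bind antibodies. In the ovary, macrophages are found in the stroma and the theca, and leukocytes are known to gather around the follicle at ovulation.

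Each array was hybridized with follicle RNA of 1 sow, 3 of the Large White breed, a European pig, and 3 of the Chinese Erhualian breed, which the study's text calls Chinese Taihu. All 6 sows received 1000 IU of PMSG, a gonadotropin that drives follicle growth, and 80 h later 500 IU of hCG, which acts like the ovulatory surge, and were killed 30 to 38 h after hCG. Healthy follicles were taken, and 5 μg of total RNA were used for each array. The sows of each breed came from a farm of their own, so breed and farm cannot be told apart. The p-values set the difference between breeds against the spread between only 3 sows a breed, with variances partly shared over all tested probe sets.

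The arrays had a median signal of 173 to 187 and 18801 to 19019 probe sets above 50. The spiked-in hybridization controls, by their geometric mean, read 1180 to 1350 on the Large White arrays and 1648 to 1850 on the Chinese Erhualian arrays, so they did not overlap between the breeds. The arrays correlated with each other at 0.834 to 0.967 on the log2 scale, and Chinese Erhualian sow 1 stood apart, at 0.834 to 0.887 with the others. In that sow the summed signal of 17 granulosa genes was 5464, against 29115 to 39817 in the other sows, and that of 11 surface epithelium genes was 34784, against 2331 to 6453. STAR, which carries cholesterol into mitochondria for steroid synthesis, was at 27.0 there and at 982 or more in each of the other sows. The granulosa and steroid synthesis markers of a follicle were thus lowest in that sow. CYP19A1, the granulosa aromatase, lay between 88.4 and 119 in all 6 sows.

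The TYROBP probe set read 648, 5138 and 791 in the Large White sows and 534, 906 and 1011 in the Chinese Erhualian sows. Large White sow 2 was thus far above the other 5, whose values lay close together and overlapped between the breeds. All 150 members were likewise highest in Large White sow 2, against 480 of the 3313 other probe sets that met the same criteria, or 14.5%. This follows from the choice of the members, because 1 array with a very high TYROBP signal sets most of an r over 6 arrays. In Large White sow 2 the members were at 1.56-fold to 14.7-fold of the median of the other 5 sows, with a median of 3.14-fold. The fold was at least 2 for 127 members, at least 4 for 51 and at least 8 for 11. In follicle RNA, more cells of a type and more RNA in each cell cannot be told apart.

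**Figure D1:**
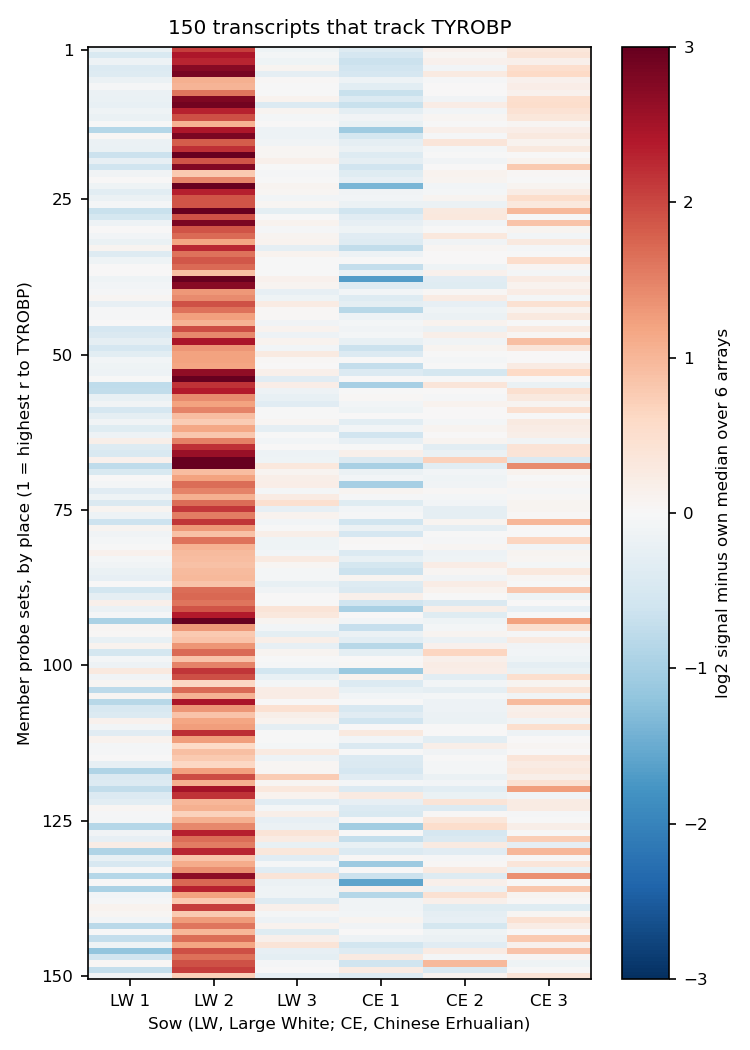
Log2 signal of each of the 150 members (rows, by place) in each sow (columns), as the difference from the member's own median over the 6 arrays, with colours that saturate at 3 in either direction. The column of Large White sow 2 is above the median for all 150 members. Chinese Erhualian sow 1 was the lowest sow for 69 of them, or 46.0%, against 31.0% of the 3313 other probe sets that met the criteria.

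The other 5 sows differed much less. The log2 range over these 5 was under 1 for 109 of the 150 members, with a median of 0.72. The median member signal was 232 in Large White sow 1 and 276 in Large White sow 3, and 212, 275 and 304 in the Chinese Erhualian sows, against 984 in Large White sow 2. Chinese Erhualian sow 3 came next after Large White sow 2 for 79 members, or 52.7%, against 14.6% of the 3313 other probe sets. Chinese Erhualian sow 1 was lowest for 69, or 46.0%, against 31.0% of the others, where it was also the sow most often lowest. Over these 5 sows, r to TYROBP was above 0 for 131 of the 150 members and above 0.5 for 100, against 1699 and 756 of the 3313 other probe sets. These 5 arrays were also part of the choice, so the counts are no independent support.

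When the same ranking was made without Large White sow 2, 26 of its top 150 probe sets were among the 150 members, and 52 of them were highest in that sow. The top 10 by that ranking were probe sets of DSE, LACTB, A2M, ITIH4, FHL2, NCF4, SDC2, GADD45A, THY1 and FAM26F, of which NCF4, SDC2 and FAM26F were members. Leaving out any other single sow kept 105 to 131 of the 150. Membership thus rested mainly on Large White sow 2.

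Among the members, the receptors and kinases of ITAM signalling were read by 5 probe sets of 4 genes. BTK, a kinase that acts below such receptors, had r of 0.992 and read 70.3, 622 and 99.3 in the Large White sows and 63.1, 87.4 and 131 in the Chinese Erhualian sows. Its signal in Large White sow 2 was 7.12-fold the median of the other 5. FCGR3A, a receptor for immunoglobulin G that needs an ITAM adaptor, read 755, 3945 and 1382 in the Large White sows and 1104, 1086 and 2126 in the Chinese Erhualian sows on the brighter of its 2 member probe sets. Chinese Erhualian sow 3 came next for both genes. FCGR1A, the high-affinity receptor for immunoglobulin G, was dimmer, at 83.5, 193 and 94.8 in the Large White sows and 104, 92.5 and 103 in the Chinese Erhualian sows. LCP2, an adaptor that links such kinases to downstream signals, stood at place 149 and read 72.5, 507 and 120 in the Large White sows and 143, 89.2 and 119 in the Chinese Erhualian sows. Of 18 genes of this list above the filter, 17 were highest in Large White sow 2, and the median gene was 1.19 higher there on the log2 scale than the median of the other sows. Over all 19196 probe sets above the filter, 14.7% were highest in that sow and the median difference was -0.01. The counts of this and the following lists include members and, here, TYROBP and FCER1G, so they describe the lists and test nothing. HCST, also called DAP10, an adaptor with no ITAM that signals through a phosphoinositide 3-kinase, was the exception, at 260, 322 and 236 in the Large White sows and 333, 245 and 228 in the Chinese Erhualian sows.

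The phagocyte oxidase makes superoxide in the engulfed vesicle. CYBB, its membrane catalytic subunit, which the array names GP91-PHOX, read 206, 1407 and 300 in the Large White sows and 209, 338 and 639 in the Chinese Erhualian sows. NCF4, a cytosolic subunit, read 86.3, 308 and 116 in the Large White sows and 78.6, 131 and 160 in the Chinese Erhualian sows and was a member with or without Large White sow 2. NCF1, the organizing cytosolic subunit, was a member on a dim probe set, at 56.1, 181 and 55.8 in the Large White sows and 34.1, 50.8 and 58.6 in the Chinese Erhualian sows. Its brighter probe set, with r of 0.930, was no member and read 557, 997 and 501 in the Large White sows and 558, 572 and 532 in the Chinese Erhualian sows, which is 1.79-fold in Large White sow 2 against 3.25-fold on the dim one. All 5 oxidase genes above the filter were highest in Large White sow 2, including CYBA and RAC2, which were no members.

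**Figure D2:**
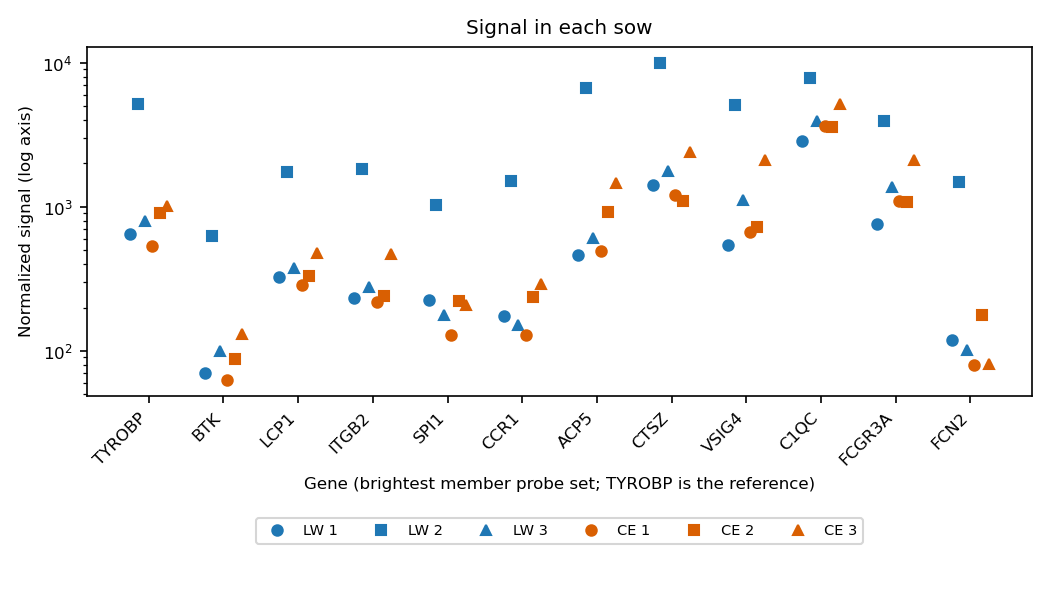
Signal on a log axis of TYROBP and of 11 member genes, each by its brightest member probe set, with 1 point per sow (blue, Large White, LW; orange, Chinese Erhualian, CE; circle, square and triangle for sows 1, 2 and 3). The blue square, Large White sow 2, is the highest point for every gene, as the choice of the members fixes, and the other 5 sows of both breeds are mixed.

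Genes of leukocyte adhesion and cytoskeleton gave the most members of any list, with 17 of its 25 probe sets that met the criteria among the members. LCP1, an actin-bundling protein of leukocytes, was read by 5 member probe sets, and the brightest gave 324, 1746 and 376 in the Large White sows and 286, 332 and 478 in the Chinese Erhualian sows. GMFG, a regulator of actin branching in blood cells, had r of 0.996 and 0.989 on its 2 probe sets, and the brighter read 382, 3054 and 472 in the Large White sows and 329, 403 and 620 in the Chinese Erhualian sows. ITGB2, the shared beta chain of the leukocyte integrins, read 232, 1839 and 279 in the Large White sows and 218, 242 and 469 in the Chinese Erhualian sows. MYO1F, an unconventional myosin of leukocytes, was at 229, 1015 and 253 in the Large White sows and 244, 276 and 333 in the Chinese Erhualian sows. PLEK, a substrate of protein kinase C in platelets and leukocytes, was at 80.6, 549 and 70.7 in the Large White sows and 54.2, 75.6 and 95.4 in the Chinese Erhualian sows. In Large White sow 2 these 5 genes were 4.02-fold to 7.59-fold the median of the others on these probe sets. CORO1A, CD53, ARHGAP25, ARHGAP30 and ARPC1B were also members, although another probe set of CORO1A had r of 0.257, and of 18 genes of the list above the filter 17 were highest in this sow.

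Of the macrophage and monocyte markers, 5 genes were members. SPI1, or PU.1, a transcription factor that drives myeloid development, read 226, 1033 and 177 in the Large White sows and 128, 223 and 208 in the Chinese Erhualian sows. IRF8, another myeloid transcription factor, was at 236, 1114 and 359 in the Large White sows and 278, 536 and 323 in the Chinese Erhualian sows. SLC11A1, a metal transporter of the phagosome membrane, read 85.1, 955 and 99.5 in the Large White sows and 36.2, 88.6 and 98.7 in the Chinese Erhualian sows, which is 10.8-fold. VSIG4, a complement receptor of tissue macrophages, read 541, 5107 and 1119 in the Large White sows and 673, 723 and 2129 in the Chinese Erhualian sows on the brightest of 3 member probe sets. Chinese Erhualian sow 3 was also high for VSIG4, but not for SPI1, IRF8 or SLC11A1. CEBPA was a member on a dim probe set, with r of 0.970, whereas its brighter probe set had r of 0.447 and differed by only 0.39 on the log2 scale between sows. Of 21 genes of this list above the filter, 13 were highest in Large White sow 2, and MARCO, CD86, FOLR2 and CD209 had r between -0.29 and 0.01. CD86 read 690, 556 and 543 in the Large White sows and 597, 794 and 499 in the Chinese Erhualian sows.

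The markers that were left out by name followed the members in part. FCER1G, at 412, 3745 and 659 in the Large White sows and 440, 683 and 969 in the Chinese Erhualian sows, had r of 0.985, and AIF1, a calcium-binding protein of macrophages, had r of 0.973, so both would have been members. CD163, a scavenger receptor for hemoglobin, read 485, 1875 and 811 in the Large White sows and 533, 508 and 1492 in the Chinese Erhualian sows on its brighter probe set, with r of 0.796. Chinese Erhualian sow 3 was nearest to Large White sow 2 on that probe set. The dimmer probe set of CD163 had r of 0.236. It read 87.2, 71.8 and 67.5 in the Large White sows and 35.3, 98.1 and 47.2 in the Chinese Erhualian sows. CD14 had r of 0.801 and 0.592 on its 2 probe sets. CD68, CSF1R and LYZ had no probe set with exactly 1 symbol. SLA-DRA, a chain of the MHC class II molecule that presents peptides to T cells, read 1513, 7398 and 1830 in the Large White sows and 3190, 2271 and 2714 in the Chinese Erhualian sows, with r of 0.837. Of 10 MHC class II probe sets above the filter, CD74 included, 8 were highest in Large White sow 2, and for 7 of these 8 the next sow was Chinese Erhualian sow 1. That sow came next for 8 of the 150 members, or 5.33%, against 8.09% of the 3313 other probe sets that met the criteria.

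The lysosome is where phagocytes break down what they take up, and DNASE2, its DNA-cutting enzyme, had the highest r of all members, at 0.997. DNASE2 read 702, 3416 and 747 in the Large White sows and 621, 881 and 1031 in the Chinese Erhualian sows. MAN2B1, a lysosomal mannosidase with r of 0.990, read 382, 897 and 443 in the Large White sows and 388, 420 and 469 in the Chinese Erhualian sows. ACP5, the tartrate-resistant acid phosphatase of osteoclasts and macrophages, read 464, 6724 and 605 in the Large White sows and 490, 913 and 1469 in the Chinese Erhualian sows, an 11.1-fold value in Large White sow 2. CTSZ, a cathepsin that trims peptides from their end, read 1419, 9980 and 1761 in the Large White sows and 1199, 1105 and 2405 in the Chinese Erhualian sows. LAPTM5, a lysosomal membrane protein of blood cells, was bright in all sows, at 1301, 5399 and 1373 in the Large White sows and 1372, 1558 and 2124 in the Chinese Erhualian sows. LGMN, GRN and IFI30 were also members. The list of lysosome and cathepsin genes held 8 member probe sets of 7 genes, so not every gene named here is in it. Of its 30 genes above the filter, 23 were highest in Large White sow 2, with a median log2 difference of 0.91. CTSD stood just outside the members at place 152.

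Lipid handling of macrophages gave 5 member probe sets of 4 genes. NR1H3, or LXR alpha, a sterol-sensing nuclear receptor, read 630, 2311 and 608 in the Large White sows and 577, 622 and 659 in the Chinese Erhualian sows. FABP5, a fatty acid binding protein, read 1204, 6490 and 1552 in the Large White sows and 1253, 974 and 1233 in the Chinese Erhualian sows on the brighter of 2 probe sets. PLIN2, which coats lipid droplets, read 1062, 3867 and 593 in the Large White sows and 404, 999 and 755 in the Chinese Erhualian sows. APOE, which carries cholesterol out of macrophages, was a member on a dimmer probe set at place 126, while its brighter one stood at place 151 and read 2199, 15671 and 4664 in the Large White sows and 1759, 6841 and 6046 in the Chinese Erhualian sows. FABP4, a fatty acid binding protein of macrophages and fat cells, was no member, with r of 0.859, and read 214, 4288 and 240 in the Large White sows and 131, 45.5 and 291 in the Chinese Erhualian sows. Of 15 genes of this list above the filter, 11 were highest in Large White sow 2.

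Among secreted and pattern recognition proteins, FCN2 had the largest fold of all 150 members in Large White sow 2, at 14.7-fold, and read 119, 1482 and 101 in the Large White sows and 80.4, 178 and 81.1 in the Chinese Erhualian sows. FCN1, a ficolin of monocytes that binds sugars on microbes, read 85.0, 796 and 68.6 in the Large White sows and 87.0, 85.9 and 86.7 in the Chinese Erhualian sows. FCN1 and FCN2 have no protein-coding gene between them in the RefSeq gene order of the pig assembly Sscrofa11.1. C1QA and C1QC encode chains of complement C1q and are also neighbours there. C1QC read 2846, 7872 and 3969 in the Large White sows and 3614, 3556 and 5162 in the Chinese Erhualian sows, and C1QA read 425, 1876 and 834 in the Large White sows and 566, 767 and 990 in the Chinese Erhualian sows. C1R and C1S, the proteases that bind C1q, had r of 0.241 and 0.195, and 5 of 20 complement genes above the filter were highest in Large White sow 2.

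CCR1, a receptor for inflammatory chemokines, read 174, 1504 and 151 in the Large White sows and 128, 235 and 292 in the Chinese Erhualian sows. TNFRSF1B, a receptor for tumour necrosis factor found mostly on leukocytes, read 999, 5515 and 1519 in the Large White sows and 1312, 1249 and 1692 in the Chinese Erhualian sows. CCL4, a chemokine that CCR1 and related receptors can bind, was at 134, 382 and 200 in the Large White sows and 126, 166 and 168 in the Chinese Erhualian sows. TGFB1 was the fourth member of the list of chemokines, cytokines and their receptors, at 150, 470 and 163 in the Large White sows and 172, 194 and 140 in the Chinese Erhualian sows. A brighter probe set of TGFB1 was no member, with r of 0.790. It read 275, 699 and 283 in the Large White sows and 435, 302 and 331 in the Chinese Erhualian sows. Of 41 genes of this list above the filter, 12 were highest in Large White sow 2. The cytokines TNF and IL1B were not among them, and TNF read 108, 98.0 and 96.0 in the Large White sows and 78.2, 96.2 and 95.1 in the Chinese Erhualian sows.

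Large folds were also seen outside the fixed lists. SMPDL3A, a phosphodiesterase related to acid sphingomyelinase, read 206, 3967 and 433 in the Large White sows and 176, 278 and 933 in the Chinese Erhualian sows. ADA2, a secreted adenosine deaminase of myeloid cells, read 134, 2335 and 219 in the Large White sows and 159, 209 and 210 in the Chinese Erhualian sows. NAAA, a lysosomal enzyme that cleaves fatty acid ethanolamides, read 317, 2997 and 344 in the Large White sows and 291, 501 and 627 in the Chinese Erhualian sows. AMBN, known as a protein of tooth enamel, read 235, 3074 and 284 in the Large White sows and 81.3, 204 and 305 in the Chinese Erhualian sows. These 4 were 8.7-fold to 14.3-fold the median of the other sows. HK3, a hexokinase of blood cells, and CD180, a relative of the toll-like receptors, were among the 10 members of highest r. CD180 was dim, with 235 in Large White sow 2. HK3 was dim on the probe set of highest r, with 156 in that sow, and brighter on its other member probe set, at 244, 998 and 192 in the Large White sows and 217, 191 and 242 in the Chinese Erhualian sows. In all, 41 of the 128 member genes were in a fixed list and 87 in none.

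Markers of other cells gave few members, but few of their probe sets met the criteria. Of all 3463 probe sets that did, 4.33% were members. IL2RG, the receptor chain shared by several interleukins, was the only member of 22 T and NK cell markers above the filter, of which 2 were highest in Large White sow 2. CD3E, a chain of the T cell receptor complex, read 80.1, 95.4 and 76.8 in the Large White sows and 130, 80.2 and 64.4 in the Chinese Erhualian sows. ICAM2 was the only member of 19 endothelial genes. The T and NK cell list had 13 probe sets that met the criteria, and the endothelial list had 9, so 1 member in each is not below that share. No gene of the lists for neutrophils, B and plasma cells, interferon-stimulated genes, red blood cells, granulosa, theca, smooth muscle, fibroblasts, surface epithelium or cell division was a member. Each of these lists held only 3 to 26 probe sets that met the criteria, so a count of 0 says little at that share. The lists also do not hold every marker of a cell type. NPG4, an antimicrobial peptide of pig neutrophils that the neutrophil list lacked, was a member on 2 probe sets. The brighter, with r of 0.950, read 107, 265 and 91.5 in the Large White sows and 109, 125 and 122 in the Chinese Erhualian sows. S100A8, an abundant neutrophil transcript, read 119, 90.9 and 80.5 in the Large White sows and 68.1, 96.4 and 73.8 in the Chinese Erhualian sows, while S100A9 read 99.8, 253 and 51.2 in the Large White sows and 47.8, 47.9 and 49.3 in the Chinese Erhualian sows and S100A12 read 101, 495 and 39.1 in the Large White sows and 46.2, 51.3 and 41.4 in the Chinese Erhualian sows. Of 8 neutrophil genes above the filter, 4 were highest in Large White sow 2, against 14.7% of all probe sets. An immunoglobulin heavy chain probe set, which the array names LOC396781, was also highest in Large White sow 2, at 570, 6412 and 1168 in the Large White sows and 1813, 710 and 1031 in the Chinese Erhualian sows, with r of 0.803.

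**Figure D3:**
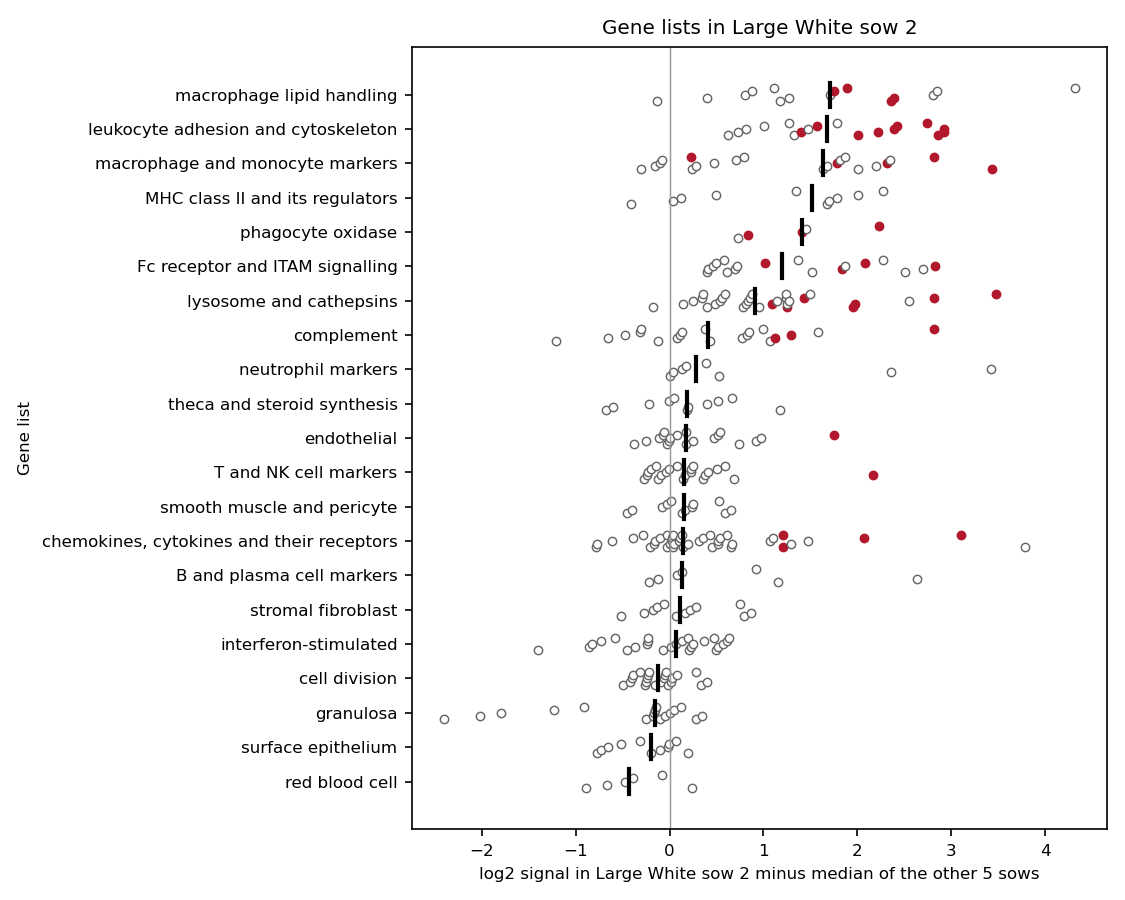
Each point is 1 gene above the filter, placed by its log2 signal in Large White sow 2 minus the median of the other 5 sows, by gene list (red, genes with a member probe set; open, others; black line, list median). The medians run from 1.71 for macrophage lipid handling to -0.43 for red blood cell genes.

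The summed signal of the 21 macrophage and monocyte genes was 29317 in Large White sow 2, against 11712 to 17681 in the other sows, and that of the 8 neutrophil genes was 1796 against 865 to 1078. For the 22 T and NK cell genes it was 2622 in that sow, within the 1986 to 5238 of the others. The sum of the 7 B and plasma cell genes was also highest there, at 14501 against 6895 to 12742. So was that of the 19 endothelial genes, at 12343 against 8941 to 10834. Only 2 of the 7 and 4 of the 19 genes were themselves highest in that sow. The median log2 differences of these 2 lists were 0.13 and 0.18. A sum is set mostly by its brightest genes, so these sums do not stand for the whole list. The sums for granulosa, theca, smooth muscle, fibroblast, surface epithelium and red blood cell genes were not highest in that sow. The actin probe sets, read near the 3′ and 5′ ends of the transcript, gave a ratio of 1.50 in Large White sow 2, the lowest of the 6, against 1.72 to 2.66. The same ratio for GAPDH was 1.39, within the 1.21 to 1.85 of the others. The part of these values in the member signals was not tested.

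Probe sets of the same gene did not always follow each other. Of the 128 member genes, 85 had all their probe sets among the members. Only 17 of the 128 had 2 or more member probe sets, so most of the 85 had a single probe set and could show no disagreement. The remaining 43 genes had 61 further probe sets outside, of which 53 passed the filter. Of these 53, 28 were highest in Large White sow 2, and their median r was 0.629. RAN, a small GTPase of nuclear transport, was a member on a probe set that read 309, 1182 and 437 in the Large White sows and 224, 274 and 614 in the Chinese Erhualian sows, whereas its brightest probe set read 10227, 9934 and 10513 in the Large White sows and 10670, 9812 and 10702 in the Chinese Erhualian sows. GPX4, an enzyme that reduces lipid peroxides, read 70.2, 327 and 85.8 in the Large White sows and 126, 101 and 109 in the Chinese Erhualian sows on the member and 7776, 6079 and 4286 in the Large White sows and 4302, 6986 and 3859 in the Chinese Erhualian sows on the other. GPR183, TNFAIP8L2, ZDHHC9 and LOC100737768 each had another probe set with r between -0.42 and -0.33. In all, 15 member genes had an outside probe set above the filter with r below 0.5. The others were TMEM151B, VDAC2, SLC27A6, WWP2, CORO1A, SLC38A9, PLEKHO1, CEBPA and LOC100519643. For these 15 genes the member values do not hold for every probe set of the gene. MPP1 went the other way, since another of its probe sets had r of 0.989 and was left out only by its log2 range of 0.95.

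**Figure D4:**
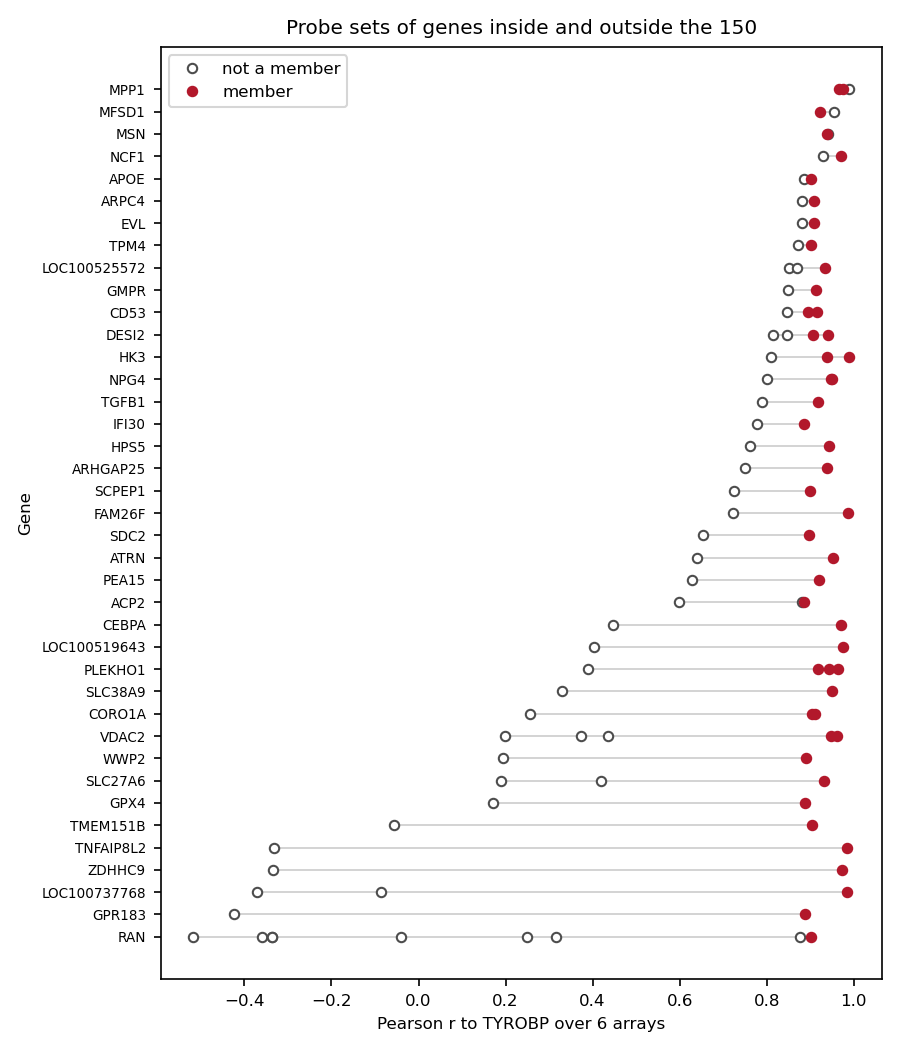
Pearson's r to TYROBP over 6 arrays for each gene with probe sets above the filter both inside (red) and outside (open) the 150, with a line per gene. RAN, GPR183, LOC100737768, ZDHHC9 and TNFAIP8L2 have an outside probe set below -0.3, while those of MPP1 and MFSD1 lie close to their members.

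The edge of the list was not sharp. The last 5 members were GPR183, GPX4, IFI30, LCP2 and ACP2, with r of 0.887 to 0.885, and the next 5 probe sets were those of APOE, CTSD, TMEM251, PYGL and a second one of ACP2, with r of 0.885 to 0.880. A further 84 probe sets without exactly 1 symbol met the other criteria and had r above the last member, and all 84 were highest in Large White sow 2.

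The study compared the breeds, and here the comparison was made with limma, which fits each probe set and moderates its variance over all 19196. None of the 150 members passed an adjusted p of 0.05, whereas 4 of all probe sets did, or 0.0208%. None passed an unadjusted p of 0.05 either, against 741 of all probe sets, or 3.86%. The part of the spiked-in controls, which were higher on all Chinese Erhualian arrays, in the breed values was not tested. This count was open to the choice of the members, since 1 sow far above the other 2 of its breed widens the spread within that breed. The member with the smallest p was RHOG, a small GTPase of phagocytic uptake, at 540, 1125 and 532 in the Large White sows and 328, 427 and 458 in the Chinese Erhualian sows, with a log2 difference of -0.78 ± 0.35 (SE) and an adjusted p of 0.993 in limma. CHI3L1, WWP2, IL2RG and TTYH2 followed, with log2 differences of -0.92, -0.74, -1.05 and -1.05 and the same adjusted p of 0.993 in limma. Another probe set of WWP2, which was dim, had r of 0.193 to TYROBP. TYROBP itself differed by -0.81 on the log2 scale.

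By their means, 148 of the 150 members were lower in the Chinese Erhualian sows, with a median log2 difference of -0.49, against 0.00 over all probe sets. GPR183 and LGMN were the other 2, at 0.06 and 0.01. Without Large White sow 2 the median was 0.05, and 85 members were higher and 65 lower in the Chinese Erhualian sows, so the direction was not kept without that sow. In 4 members, HPS5, RAP2B, RHOG and IL2RG, all Large White sows were above all Chinese Erhualian sows, against 9.10% of all probe sets whose breeds did not overlap. IL2RG read 64.5, 253 and 67.5 in the Large White sows and 56.4, 47.2 and 46.7 in the Chinese Erhualian sows.

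**Figure D5:**
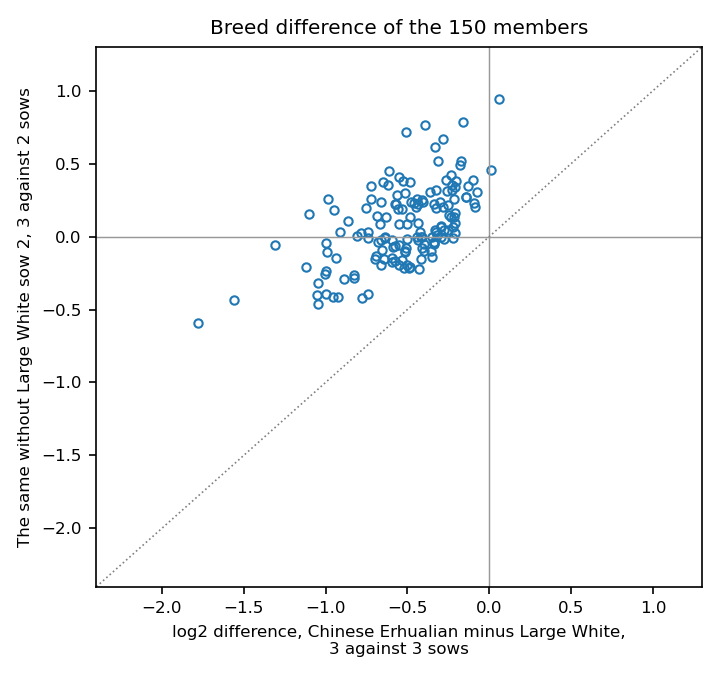
Log2 difference of each member between the breeds (Chinese Erhualian minus Large White) with all 6 sows on the x axis and without Large White sow 2 on the y axis, with the dotted line marking equal values. On the x axis 148 of the 150 members are below 0, and on the y axis 65 are.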

How the data were processed

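Follicle RNA of 6 sows was read on Affymetrix porcine arrays, 1 array per sow. The deposited values are signal intensities on a linear scale, which the authors made with MAS5 (2.3.1) and then normalized between arrays in dChip by the invariant set method. Depth does not apply to arrays, and their number limits the precision. Signals below 1 were set to 1 and log2 was taken. Gene symbols came from the platform annotation, in which 10069 of 23935 probe sets had 1 symbol, 198 had several and 13668 had none. Sequences of the probes were not used here. Breeds were compared with limma 3.58.1 in R 4.3.3 (lmFit, eBayes with a trend, two-sided, Benjamini-Hochberg) on the 19196 probe sets above 50 on at least 3 arrays. Groups came from the sample titles. Both steps were run on simulated data with strong planted patterns, which checks the code and not how well small differences are found.

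The members and gene lists were chosen with earlier results of these data known. Named genes were the 10 members of highest r, the 5 on either side of the last place, up to 4 members per list, the smallest p in each direction, the 10 largest folds, and genes whose probe sets disagreed. Alternatives were other scalings, offsets, filters, anchors, a replicate block, array weights, the methods' t-test as an unmoderated fit, and each sow left out.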

Additional observations from a re-analysis of the deposited data

How the results depend on the processing

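The number of members at an adjusted p below 0.05 in limma was 0 under every alternative run. At an unadjusted p of 0.05 it was 0 with quantile normalization, median scaling, an offset of 16, a filter at 100, no filter and the methods' t-test, 5 with array weights, and 0 to 8 with 1 sow left out. The 5 are 3.33% of the members, against 6.79% of all probe sets in that fit. The 8 came without Large White sow 1, are 5.33% against 3.52%, and included 2 probe sets of DESI2. Without Large White sow 2 it was GPX4 alone, or 0.667% against 1.94%, and without Large White sow 3 CHI3L1 alone, or 0.667% against 4.78%. The median log2 difference between breeds ran from -0.79 to 0.048 with 1 sow left out. It turned sign only without Large White sow 2, at 0.048, and was -0.47 to -0.50 under the other scalings and the offset and -0.90 with array weights. With the members chosen without Large White sow 2, 52 were highest in that sow instead of 150. The members shared with the 150 were 111 to 142 under the other scalings, filters, ranges, anchor and distance, and 26 to 131 with 1 sow left out, the 26 being without Large White sow 2.

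Sows share replicate numbers across the breeds, but the deviations of same-numbered sows correlated at -0.17, -0.14 and 0.27 over 19196 probe sets, so the numbers were not taken to pair the sows. With the replicate block, 1 member, TTYH2, passed an unadjusted p of 0.05, or 0.667% against 3.75% of all probe sets, and 0 an adjusted one, and the median stayed at -0.49.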
